A study of Mus musculus with 6 samples.

Results

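The genes described here are 9 markers of fetal-like and regenerative intestinal epithelium: Il33, Tnfrsf12a, Cnn3, Anxa1, Clu, Ly6a, S100a6, Krt7 and Msln. They were chosen by name from the 27179 genes of the deposited table, and each of the 9 symbols matched 1 row. The adult crypt is normally renewed by Lgr5 stem cells at its base. After injury, or when crypt cells are placed in culture, part of the epithelium can pass through a state that resembles the fetal intestine, marked by Ly6a (Sca-1), Anxa1 and Clu, and the transcriptional coactivator YAP is known to drive much of this programme. The 9 genes encode a nuclear alarmin (Il33), a cytokine receptor (Tnfrsf12a), cell-surface proteins (Ly6a and Msln), calcium-binding proteins (Anxa1 and S100a6), a secreted chaperone (Clu) and proteins of the cytoskeleton (Krt7 and Cnn3).

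The samples were organoids, that is, crypt epithelium grown as budding structures in Matrigel with IntestiCult medium, from small intestine of mice labelled WT. One group received the thyroid hormone T3 at 1e-07 M for 17 h (3 libraries) and the other its vehicle for the same time (3 libraries). All groups share genotype, tissue and medium, and the labels give neither age nor sex and do not say whether the libraries came from separate cultures or animals. If they are repeats of 1 culture, the spread behind every p-value here is technical. The study asked how transcripts of the intestinal epithelium respond to T3.

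Levels are normalized reads, that is, reads per gene scaled between libraries by the authors and rounded to whole numbers. Column totals ran from 28197080 to 28611883 normalized reads with vehicle and from 29510422 to 29974091 with T3. Klf9, a direct T3 target in many tissues, rose 6.08-fold, from 352 ± 20.3 to 2144 ± 60.8 (SD, n = 3). Replicate libraries differed by more than sampling noise in every pair, with a mean chi-square per gene from 4.89 to 14.9. The pairs that held T3 replicate 3 were at 13.9 and 14.9 against 5.07 between the other T3 libraries, and those that held vehicle replicate 1 at 8.13 and 9.92 against 4.89 between the other vehicle libraries. Results for the markers are therefore also given without these 2 libraries. Epithelial genes were high in every library, among them Epcam at 39050 ± 402 and 44132 ± 417 and Vil1, a brush border protein, at 17116 ± 719 and 26689 ± 764 normalized reads with vehicle and T3.

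T3 raised 6 of the 9 markers and lowered 1. A gene is said to have risen or fallen where the adjusted p-value was under 0.05 in limma's test across all 13052 genes tested, and all 9 markers passed the filter on low values for that test, Il33 through the T3 libraries. Il33, Tnfrsf12a, Ly6a, Anxa1, Clu and S100a6 rose, Cnn3 fell, and Msln and Krt7 did not pass. Such calls were frequent in this comparison: 44.8% of all genes tested changed, 24% up and 20.8% down, so 7 calls among 9 genes are read against that share. The split between rises and falls among all called genes, 53.6% higher as deposited, was 43.0% once upper quartiles were made equal and 38.8% once column totals were. The median log2 fold change of the 9 markers was 0.70 beside -0.0089 over all genes tested. The 3 T3 libraries lay above all 3 vehicle libraries for 7 markers and below them for 1, where 54.9% of all genes tested showed no overlap in either direction. All fold changes come from log2(value + 1), which makes the change of a gene with few reads look smaller than it was. In bulk RNA a change in the number of cells that express a gene and a change in the RNA per cell cannot be told apart.

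**Figure D1:**
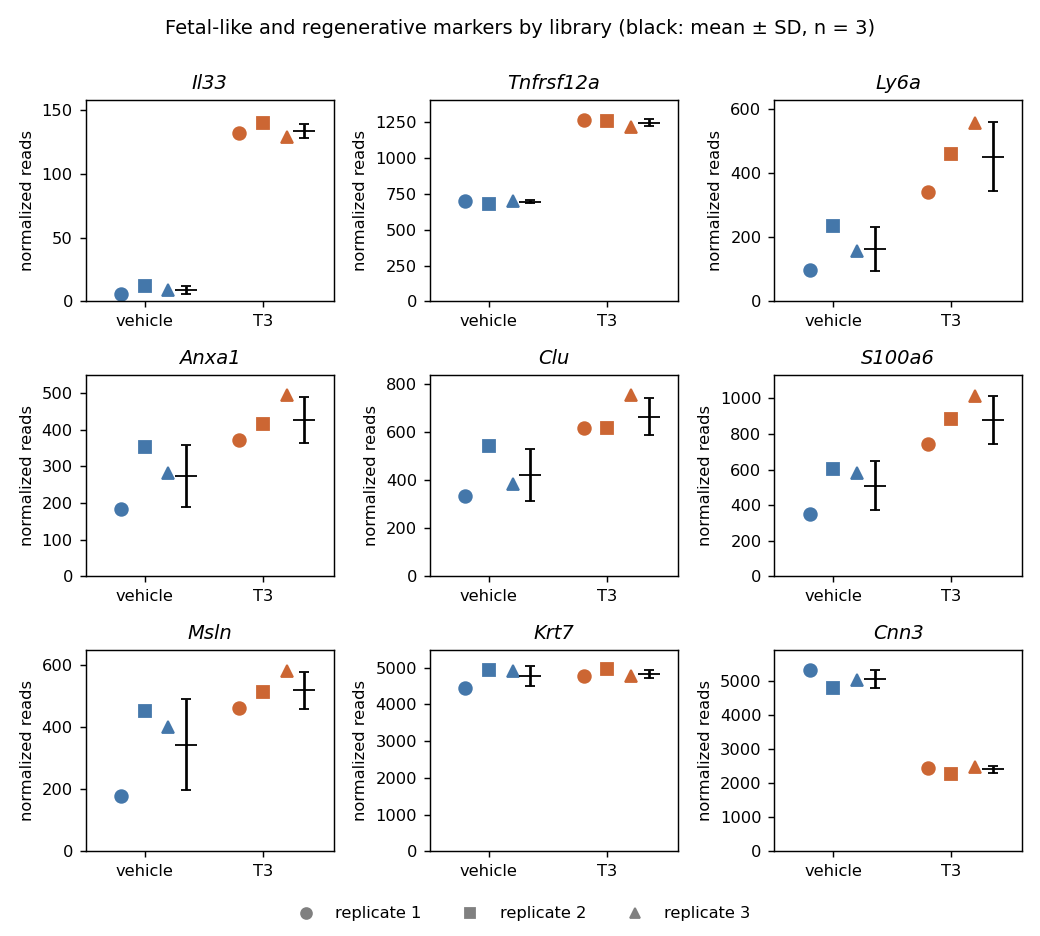
Normalized reads (y axis, from 0, own scale in each panel) of the 9 markers in each of the 3 vehicle and 3 T3 libraries, with marker shape giving the replicate number and black bars the mean ± SD (n = 3). Tnfrsf12a forms tight groups with T3 above vehicle, Il33 is near 0 in every vehicle library, Cnn3 is lower with T3 in every library, Krt7 overlaps, and Ly6a, Anxa1, Clu, S100a6 and Msln spread within each group with vehicle replicate 1 lowest and T3 replicate 3 highest.

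Il33 encodes interleukin 33, a cytokine of the interleukin 1 family that is kept in the nucleus of barrier cells and acts as an alarmin when released (gene ID 77125, GRCm38 chromosome 19, 29925114 to 29960715, plus strand, 9 exons). It was listed at 6, 12 and 9 normalized reads in vehicle replicates 1 to 3 and at 132, 140 and 129 in T3 replicates 1 to 3. The vehicle libraries were close to silent, and the T3 libraries stood at a low but even level far above them. The rise was 13.9-fold on the fitted scale (log2 3.80 ± 0.24 SE, adjusted p = 1.60e-06), and the ratio of the group means was 14.9. It was the largest change among the 9 markers, and it was 12.01-fold without vehicle replicate 1 and T3 replicate 3. With a pseudocount of 5 in place of 1 the fitted fold was 10.1.

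The specific receptor chain for Il33 was at or near 0 in these libraries. Il1rl1, which encodes the ST2 receptor, was listed at 0 in 5 libraries and at 1 normalized read in T3 replicate 2, while the shared coreceptor Il1rap was present at 365 ± 31.8 with vehicle and 285 ± 31.2 with T3. Of 8 tested genes of Il33 reception and interleukin 1 family signalling, 4 rose and 1 fell. Among all genes tested 24% rose and 20.8% fell. The median log2 fold change of the 8 genes was 0.15, and 2 of the rises were at least 1.5-fold. Il18, another interleukin 1 family cytokine of epithelium, rose 2.90-fold from 95.7 ± 9.50 to 279 ± 17.8. Il1rn, the interleukin 1 receptor antagonist, rose 2.02-fold, from 59, 135 and 86 with vehicle to 170, 176 and 192 with T3. The kinase genes Irak4 and Irak1, which act below the receptor adaptor Myd88, rose 1.34-fold and 1.11-fold, and the call of Irak1 was lost with equal column totals (adjusted p = 0.0915). The 1 gene that fell was Il1rap, and this call was lost without vehicle replicate 1, T3 replicate 1 or T3 replicate 2. Il1b and Il1f9 were listed at 0 in all 6 libraries.

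Tnfrsf12a encodes Fn14, the receptor for the cytokine TWEAK and a gene induced in injured epithelium (gene ID 27279, chromosome 17, 23675445 to 23677449, minus strand, 4 exons). It stood at 698, 683 and 703 normalized reads with vehicle and at 1269, 1257 and 1220 with T3. Both groups were tight, with the highest library only 1.03 times the lowest with vehicle and 1.04 times with T3, and they lay far apart. The rise was 1.80-fold (log2 0.84 ± 0.05 SE, adjusted p = 7.97e-07). The standard deviation of its log2 values over the vehicle libraries was at or above that of only 7.36% of the genes tested. Its exons share 80 bases with those of Hcfc1r1 on the opposite strand, and no source used here states whether reads were counted by strand. Hcfc1r1 stood at 631 ± 57.2 and 581 ± 24.0 normalized reads (adjusted p = 0.242).

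Of 9 tested genes for TWEAK and its signalling partners 2 rose and none fell, with a median log2 fold change of 0.16, where 24% of all genes tested rose. Relb, a subunit of the alternative NF-kappa-B pathway, rose 1.37-fold from 579 ± 15.4 to 793 ± 46.2, and Birc3, a ubiquitin ligase of the same receptor complex, rose 1.28-fold from 792 ± 35.9 to 1017 ± 80.4. The adaptors Traf2 and Traf3 did not pass the test. The TWEAK gene Tnfsf12 did not reach the filter on low values.

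Ly6a encodes Sca-1, a small glycolipid-anchored surface protein and the most used marker of the fetal-like state in mouse intestine (gene ID 110454, chromosome 15, 74994877 to 74997888, minus strand, 4 exons). It was at 98, 236 and 156 normalized reads with vehicle and at 340, 458 and 555 with T3. The groups did not overlap, but each was wide, with the highest library 2.41 times the lowest among vehicle libraries and 1.63 times among T3 libraries. The rise was 2.87-fold (log2 1.52 ± 0.28 SE, adjusted p = 0.00178). It was 2.30-fold without vehicle replicate 1 (adjusted p = 0.00205), 2.56-fold without T3 replicate 3 (adjusted p = 0.00557) and 2.05-fold without both (adjusted p = 0.00275).

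Of 8 tested members of the Ly6 family, Ly6a included, 6 rose and none fell, where 24% of all genes tested rose and 20.8% fell. But Psca and Ly6c1 passed the filter on low values through the T3 libraries alone, and with that filter at 50 normalized reads the number that rose was 3. Ly6e, an interferon-inducible relative, rose 1.62-fold from 6397 ± 183 to 10341 ± 223. Lypd8, an antibacterial surface protein of enterocytes, rose 1.36-fold to 12059 ± 912, and Lynx1, a modulator of acetylcholine receptors, rose 2.03-fold from 26.7 ± 6.35. Psca, the prostate stem cell antigen gene, was at 2, 7 and 1 with vehicle and 13, 26 and 12 with T3. Ly6a belongs to a cluster of similar genes, so the counting could have split or merged reads between relatives, and its level is uncertain to that extent. Its close relative Ly6c1, named after its values were seen, was at 0, 7 and 4 with vehicle and at 14, 12 and 23 with T3. For both genes vehicle replicate 1 was lowest and T3 replicate 3 highest of its group.

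Anxa1 encodes annexin A1, a calcium-dependent membrane-binding protein with anti-inflammatory and wound-repair roles (gene ID 16952, chromosome 19, 20373434 to 20390671, minus strand, 13 exons). It was at 185, 353 and 282 normalized reads with vehicle and at 372, 415 and 494 with T3. The groups did not overlap, but the highest vehicle library came close to the lowest T3 library. The rise was 1.603-fold (log2 0.68 ± 0.20 SE, adjusted p = 0.0216), and its adjusted p-value was the highest of the 7 calls. The call was lost without T3 replicate 3 (adjusted p = 0.0620) and without vehicle replicate 3 (adjusted p = 0.0527), and without both vehicle replicate 1 and T3 replicate 3 it was 1.24-fold (adjusted p = 0.0575). In the authors' deposited table its adjusted p-value was 0.0687.

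Of 12 annexin genes, all tested and Anxa1 included, 5 rose, 2 fell and 5 were not called. Among all genes tested 24% rose and 20.8% fell. The median log2 fold change of the annexins was 0.31. Anxa2, a membrane organizer that pairs with S100a10, rose 1.72-fold from 5757 ± 500 to 9966 ± 1510, and Anxa5, known as a probe for exposed phosphatidylserine, rose 2.04-fold from 515 ± 28.4 to 1053 ± 95.6. Anxa13, the intestine-enriched annexin, fell 1.36-fold from 3488 ± 115 and Anxa11 fell 1.15-fold. Anxa4, the most abundant annexin here, stood between 35264 and 36245 normalized reads in all 6 libraries. The number that rose was 3 without vehicle replicate 3 and 3 without T3 replicate 3. The formyl peptide receptor genes Fpr1, Fpr2 and Fpr3, through which annexin A1 signals, were listed at 0 in all 6 libraries.

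S100a6 encodes calcyclin, a small calcium sensor that is high in proliferating and repairing cells (gene ID 20200, chromosome 3, 90612894 to 90614414, plus strand, 3 exons). It was at 351, 601 and 579 normalized reads with vehicle and at 741, 885 and 1012 with T3. The groups did not overlap, and vehicle replicate 1 stood well below the other vehicle libraries. The rise was 1.76-fold (log2 0.81 ± 0.19 SE, adjusted p = 0.00642). It was 1.48-fold without vehicle replicate 1 (adjusted p = 0.00371) and 1.37-fold without both vehicle replicate 1 and T3 replicate 3 (adjusted p = 0.00269). The call was lost with robust variance moderation (adjusted p = 0.0610).

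Most tested S100 genes rose with it. Of 10 tested genes for S100 proteins and their binding partners, S100a6 included, 7 rose and 1 fell, where 24% of all genes tested rose and 20.8% fell. The median log2 fold change was 0.54. S100a10, the partner of annexin A2, rose 1.46-fold from 3362 ± 133 to 4929 ± 338. S100a11, also an annexin partner, rose 1.65-fold from 536 ± 69.4, and S100a1 rose 1.54-fold from 338 ± 13.5. S100pbp, a binding protein of another S100 protein, fell 1.595-fold from 148 ± 25.5 to 91.7 ± 6.43. The calcyclin-binding protein gene Cacybp did not pass the test, and a second gene fell without T3 replicate 3. Several annexin and Ly6 genes also stand in the wider list of fetal-like genes given further on, so the annexin and Ly6 counts are not separate from it.

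Clu encodes clusterin, a secreted chaperone and the marker of rare revival stem cells that appear after damage (gene ID 12759, chromosome 14, 65968483 to 65981545, plus strand, 9 exons). It was at 335, 541 and 386 normalized reads with vehicle and at 619, 619 and 754 with T3. All T3 libraries were above all vehicle libraries, with vehicle replicate 2 the nearest to them. The rise was 1.603-fold (log2 0.68 ± 0.16 SE, adjusted p = 0.00598), and 1.35-fold without vehicle replicate 1 and T3 replicate 3 (adjusted p = 0.0270). It was the one marker of the 5 with wide groups for which vehicle replicate 1 was not at least 1.5 times below each of the other vehicle libraries. Of 5 tested receptors and partners of clusterin 2 rose and 1 fell, where 24% of all genes tested rose and 20.8% fell. Apoa1, the high-density lipoprotein apolipoprotein with which clusterin travels in plasma, rose 3.08-fold from 1690 ± 197 to 5213 ± 630, the chaperone Hspa5 rose 1.34-fold, and the receptor gene Lrp8 fell 1.18-fold.

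Msln encodes mesothelin, a surface glycoprotein of mesothelium that is also taken up by fetal-like and metaplastic epithelium (gene ID 56047, chromosome 17, 25748613 to 25754327, minus strand, 16 exons). It was at 178, 451 and 401 normalized reads with vehicle and at 462, 512 and 580 with T3. The T3 libraries were all above the vehicle libraries, but vehicle replicate 2 came close to T3 replicate 1. The difference did not pass (1.62-fold, adjusted p = 0.0749, 95% interval of the log2 fold change 0.05 to 1.34 without adjustment). It was 1.21-fold without vehicle replicate 1 (adjusted p = 0.0603), but 1.93-fold and called without vehicle replicate 2 (adjusted p = 0.0262). The vehicle spread of Msln on the log2 scale was at or above that of 99.1% of all genes tested. The mesothelial genes Wt1 and Lrrn4 were at 0 in all libraries and at 0 to 2, and Muc16, the binding partner of mesothelin, was at 0 in all 6. Upk1b, a uroplakin of mesothelium and other barrier epithelia, rose from 13.7 ± 6.03 to 83.7 ± 7.51, while Upk3b stood at 128, 151 and 44 with T3 beside 148 ± 11.4 with vehicle.

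Krt7 encodes keratin 7, an intermediate filament of simple ductal epithelia that is high in fetal and injured gut (gene ID 110310, chromosome 15, 101412403 to 101427806, plus strand, 9 exons). It was at 4448, 4945 and 4914 normalized reads with vehicle and at 4763, 4967 and 4777 with T3. The groups overlapped. The log2 difference was 0.02 with a 95% interval from -0.09 to 0.13 (adjusted p = 0.747), and its sign changed when columns were scaled to equal totals or upper quartiles and when vehicle replicate 1 was left out. Among 8 tested keratins, Krt7 included, 4 rose and 1 fell, where 24% of all genes tested rose and 20.8% fell. The median log2 fold change of the keratins was 0.14. Krt23 rose 1.36-fold from 273 ± 36.7 to 369 ± 9.87, Krt80 rose from 21.7 ± 1.53 to 37.0 ± 7.21, and Krt19 rose 1.13-fold, while Krt18, the partner of Krt8 in simple epithelia, fell 1.14-fold. Only 1 keratin rose without T3 replicate 1, and 2 rose without vehicle replicate 1 or without vehicle replicate 2. The calls of Krt19 and Krt80 were among those lost.

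Cnn3 encodes calponin 3, an actin-binding protein found in many non-muscle cells (gene ID 71994, chromosome 3, 121426541 to 121458205, plus strand, 7 exons). It was at 5319, 4805 and 5017 normalized reads with vehicle and at 2454, 2278 and 2481 with T3. Every T3 library was at about the same level, far below every vehicle library. The fall was 2.10-fold (log2 -1.07 ± 0.05 SE, adjusted p = 2.59e-07), and over the alternatives run the log2 fold change stayed between -1.14 and -1.03. Cnn3 was the one called marker that moved down.

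Most other actin-binding genes moved up. Of 12 tested calponins and actin-binding proteins, Cnn3 included, 8 rose and 2 fell, where 24% of all genes tested rose and 20.8% fell. The second gene that fell was Actn1, an actin crosslinker, at 1.25-fold. The median log2 fold change was 0.33, and 3 of the rises and 1 fall were at least 1.5-fold. Tagln2, a calponin-family protein of epithelial and blood cells, rose 1.54-fold from 7861 ± 281 to 12106 ± 238. The tropomyosin genes Tpm1 and Tpm3 rose 1.27-fold and 1.25-fold. Cnn2, the other calponin gene tested and named after its values were seen, was at 318, 325 and 350 with vehicle and at 516, 594 and 429 with T3, a rise of 1.54-fold. Cnn1, the smooth muscle calponin, did not reach the filter on low values.

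**Figure D2:**
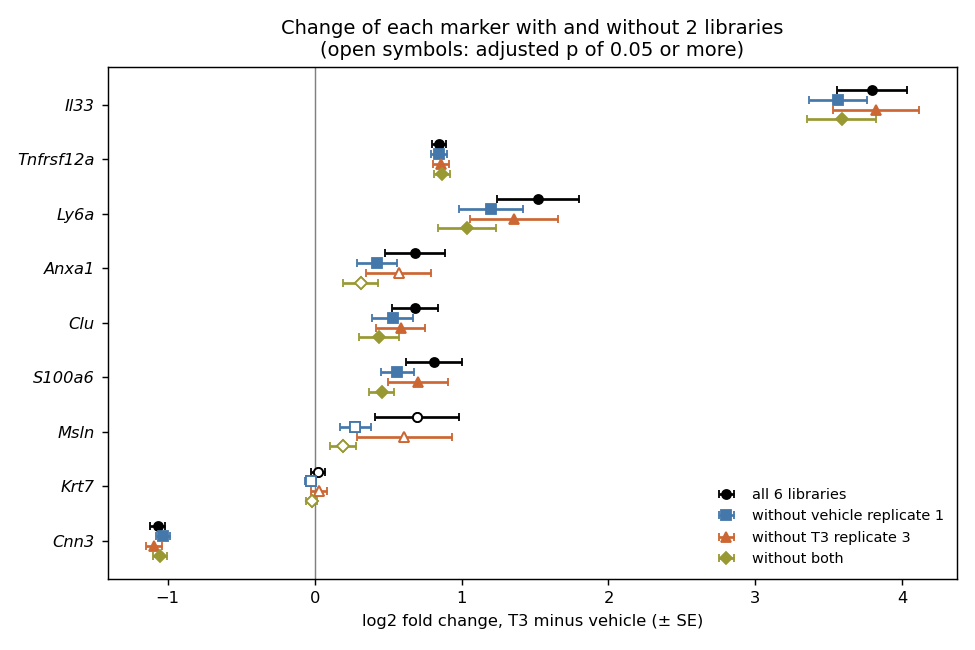
Log2 fold change of each marker, T3 minus vehicle, with its standard error, from limma's test on all 6 libraries and without vehicle replicate 1, without T3 replicate 3 or without both (open symbols: not called). Tnfrsf12a and Cnn3 hold their place. Ly6a, Anxa1, Clu, S100a6 and Msln move toward 0 without both libraries, Ly6a from 1.52 to 1.04, Msln from 0.70 to 0.19 and Clu from 0.68 to 0.44. Il33 goes from 3.80 to 3.59, a small part of its change.

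The markers divided by how they varied within each group. Vehicle replicate 1 was the lowest vehicle library for 7 of the 9 markers, where it was the lowest for 37.5% of all genes tested. T3 replicate 3 was the highest T3 library for 6 of the 9, where it was the highest for 36.9% of all genes tested. Ly6a, Anxa1, Clu, S100a6 and Msln showed both at once, 5 of 9 markers, beside 10.4% of all genes tested. For Il33, Ly6a, Anxa1, S100a6 and Msln, vehicle replicate 1 was at least 1.5 times below each of the other vehicle libraries. Such a gap was seen in 218 of the 13052 genes tested, or 1.67%. The Il33 gap rested on few reads, 6 against 12 and 9, and only just met the measure. The measure was chosen after the values were seen and is given as a description without a test.

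The size of these gaps was largest for Msln and Ly6a. On the log2 scale vehicle replicate 1 lay 1.26 below the mean of the other vehicle libraries for Msln (-1.26), and the same difference was -1.0 for Ly6a, -0.81 for Il33, -0.78 for Anxa1, -0.75 for S100a6 and -0.47 for Clu. For Tnfrsf12a it was 0.01 and for Cnn3 0.12. T3 replicate 3 lay above the mean of the other T3 libraries by 0.48 for Ly6a, 0.33 for Anxa1, 0.32 for S100a6, 0.28 for Clu and 0.25 for Msln, whereas for Il33 the difference was -0.08. What sets these libraries apart was not tested, and the labels name no batch.

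**Figure D3:**
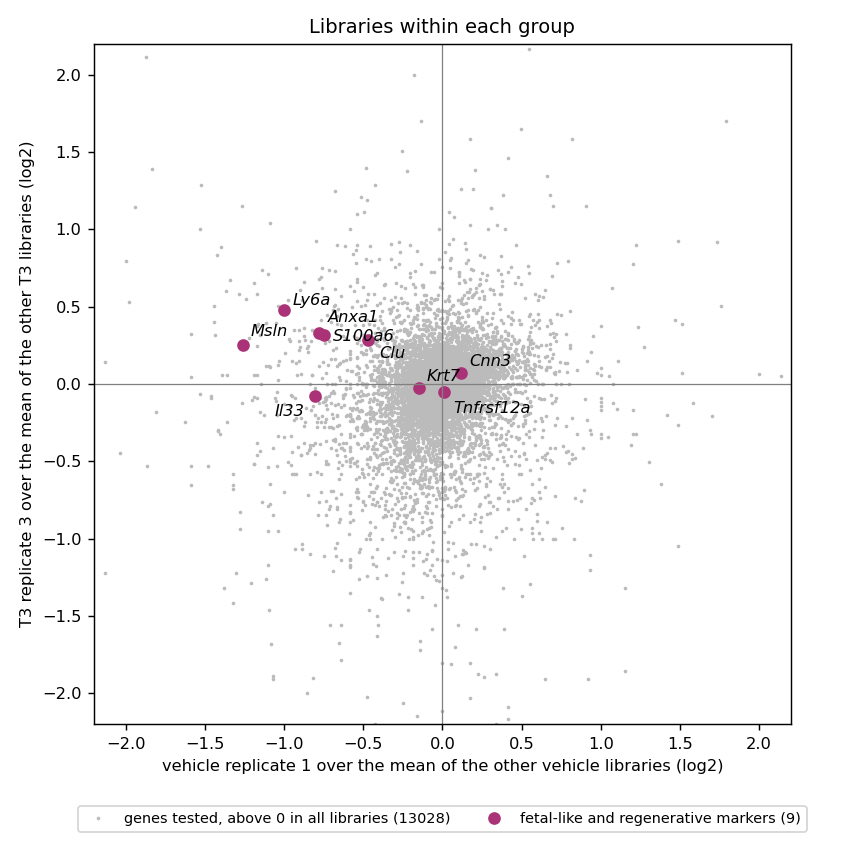
Each point is a gene above 0 in all libraries (13028 genes, 22 of them outside the axes). The x axis is the log2 ratio of vehicle replicate 1 to the mean of the other vehicle libraries, and the y axis the log2 ratio of T3 replicate 3 to the mean of the other T3 libraries. Ly6a, Msln, Anxa1, S100a6 and Clu lie together at the upper left, with x from -1.26 to -0.47 and y from 0.25 to 0.48, Il33 lies to the left at x of -0.81 and y of -0.08, and Cnn3, Krt7 and Tnfrsf12a sit nearer the origin.

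Levels per kilobase of exon allow the markers to be ranked against each other. With vehicle, Krt7 was highest at 3007 ± 176 normalized reads per kilobase, followed by Cnn3 at 2520 ± 129, Tnfrsf12a at 720 ± 10.8 and S100a6 at 710 ± 193. Clu, Ly6a, Anxa1 and Msln followed between 233 and 162, and each overlapped its neighbour in that order, as did Tnfrsf12a and S100a6. Il33 was lowest at 3.46 ± 1.15. With T3, Krt7 was still highest at 3049 ± 71.8, and Tnfrsf12a at 1294 ± 26.5, S100a6 at 1223 ± 189 and Cnn3 at 1200.4 ± 55.0 came next, each overlapping its neighbour. Ly6a followed at 545 ± 130 per kilobase, and Il33 remained last at 51.4 ± 2.18, with no overlap with Msln above it.

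Promoter sequences were available for 6 of the 9 markers, with 2 start sites for Il33, from RefSeq on GRCm38.p6. The 250 bases before the start are shown 5′ to 3′ for the marker with the largest rise (Il33), for called markers with close replicates (Tnfrsf12a and Cnn3) and for a pair with wide groups (Anxa1 and S100a6), since they differ in base composition. Capitals mark matches to the motif of the YAP partner TEAD, GGAATG, on either strand. The windows are chr19:29924863-29925112 and chr19:29945540-29945789 on the plus strand for Il33, chr17:23677450-23677699 on the minus strand, chr3:121426291-121426540 on the plus strand, chr19:20390672-20390921 on the minus strand and chr3:90612644-90612893 on the plus strand.
Il33, upstream start: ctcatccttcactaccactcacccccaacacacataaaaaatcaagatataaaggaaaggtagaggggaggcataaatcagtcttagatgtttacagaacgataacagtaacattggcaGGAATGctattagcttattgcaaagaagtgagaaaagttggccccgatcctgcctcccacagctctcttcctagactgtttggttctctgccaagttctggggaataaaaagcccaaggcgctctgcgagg
Il33, downstream start: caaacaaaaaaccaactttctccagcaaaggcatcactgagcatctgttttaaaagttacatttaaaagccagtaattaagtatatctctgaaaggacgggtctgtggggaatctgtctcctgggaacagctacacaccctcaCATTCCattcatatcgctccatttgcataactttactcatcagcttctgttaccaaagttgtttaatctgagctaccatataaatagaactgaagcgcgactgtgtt
Tnfrsf12a: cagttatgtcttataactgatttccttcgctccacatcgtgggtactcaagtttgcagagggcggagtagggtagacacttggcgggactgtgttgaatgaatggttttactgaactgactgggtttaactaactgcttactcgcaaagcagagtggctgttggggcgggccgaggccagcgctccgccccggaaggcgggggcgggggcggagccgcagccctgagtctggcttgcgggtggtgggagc
Cnn3: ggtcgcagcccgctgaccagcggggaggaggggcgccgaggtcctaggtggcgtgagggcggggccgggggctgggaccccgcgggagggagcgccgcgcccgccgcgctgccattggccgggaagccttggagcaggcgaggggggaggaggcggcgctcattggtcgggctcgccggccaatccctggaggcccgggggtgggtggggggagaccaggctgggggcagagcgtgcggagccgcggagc
Anxa1: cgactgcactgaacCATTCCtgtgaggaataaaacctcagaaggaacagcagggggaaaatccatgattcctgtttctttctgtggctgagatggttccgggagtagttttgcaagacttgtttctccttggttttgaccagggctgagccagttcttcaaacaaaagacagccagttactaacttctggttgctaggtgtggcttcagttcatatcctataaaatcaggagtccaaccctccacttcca
S100a6: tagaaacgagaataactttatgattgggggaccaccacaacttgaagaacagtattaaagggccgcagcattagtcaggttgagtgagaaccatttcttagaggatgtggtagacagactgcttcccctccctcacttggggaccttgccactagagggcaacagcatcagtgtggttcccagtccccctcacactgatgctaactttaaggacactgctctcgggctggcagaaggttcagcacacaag

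The windows differed in their number of CG pairs. Cnn3 held 28 CG pairs, Krt7 16 and Tnfrsf12a 15, whereas both Il33 windows held 4, S100a6 held 3 and Anxa1 held 2, beside a median of 6 over all 32851 promoter windows of the same length. The TEAD motif was found in both Il33 windows, beginning at positions -131 and -107 from the start, and in that of Anxa1 at -236, and it was found in 12.6% of all windows. The core motif of the thyroid hormone receptor, AGGTCA, and the AP-1 motif, TGANTCA, were searched on both strands and were in none of the 7 marker windows, where 14.02% and 6.75% of all windows held them. These are matches of letters within 250 bases and are not measurements of binding.

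A wider list of other genes of fetal-like and regenerative epithelium moved mostly up. Of 33 genes listed, 29 were tested, 17 rose and 1 fell, where 24% of all genes tested rose and 20.8% fell. The median log2 fold change was 0.63. Ly6c1 passed the filter on low values through the T3 libraries alone. With that filter at 50 normalized reads the number that rose was 15. Without vehicle replicate 1 and T3 replicate 3, 16 rose and 1 fell. Plaur, the urokinase receptor of migrating epithelium, rose 2.15-fold from 69.7 ± 10.7 to 150 ± 6.66 normalized reads, and Anxa5 and Ly6e, described above, were the others with the smallest p-values among the rises. Trim2, a ubiquitin ligase, was the gene that fell, 1.34-fold from 4830 ± 297. Vehicle replicate 1 was the lowest vehicle library for 22 of the 29 genes. T3 replicate 3 was the highest T3 library for 12 and the lowest for 16, so the wider list as a whole did not share the order of the 5 markers among T3 libraries. Part of it did. Vehicle replicate 1 was at least 1.5 times below each other vehicle library for 6 of the 29 (20.7%), beside 1.67% of all genes tested. For 4 of the 29 (13.8%) T3 replicate 3 was also highest, beside 0.45% of all genes tested. These were Ly6d, Anxa8, Emp3 and Ly6c1, all with few reads. Among genes named after their values were seen, Areg, a ligand of the EGF receptor, was at 1411, 1828 and 937 in T3 replicates 1 to 3 and Sprr1a at 81, 82 and 22, with T3 replicate 3 lowest for both.

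Of 18 tested YAP and TEAD target genes 5 rose and 4 fell, with a median log2 fold change of -0.00093, shares near those of all genes tested (24% up and 20.8% down). Nt5e, 1 of the genes that rose, was at 3, 9 and 7 with vehicle and 24, 23 and 19 with T3. It passed the filter on low values through the T3 libraries alone, and with that filter at 50 normalized reads the number that rose was 4. Dock5 rose 1.497-fold and Wwc1, itself an upstream regulator, 1.24-fold, while Crim1 fell 1.83-fold from 1722 ± 84.6 and Gadd45b 1.73-fold from 416 ± 38.5. The number that fell was 2 without vehicle replicate 1, without vehicle replicate 2 or without T3 replicate 2. The most used targets, named after their values were seen, were Cyr61, which rose 1.45-fold from 158 to 231 normalized reads, and Ctgf, which was near 0 at 8, 12 and 9 with vehicle and 16, 18 and 15 with T3 and did not pass. Of 18 core pathway genes 4 rose and 2 fell. Wwtr1, which encodes the YAP relative TAZ, rose 2.03-fold from 123 ± 20.3 to 251 ± 57.1, Tead3 rose 1.33-fold and the kinase gene Stk3 1.32-fold, whereas Tead2 fell 2.30-fold from 270 ± 6.66 to 119 ± 24.8. Yap1 itself was at 4261 ± 67.0 and 4029 ± 193 and did not pass (adjusted p = 0.150). The number of core genes that fell was 1 without any single library other than T3 replicate 3, and 3 without T3 replicate 3.

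**Figure D4:**
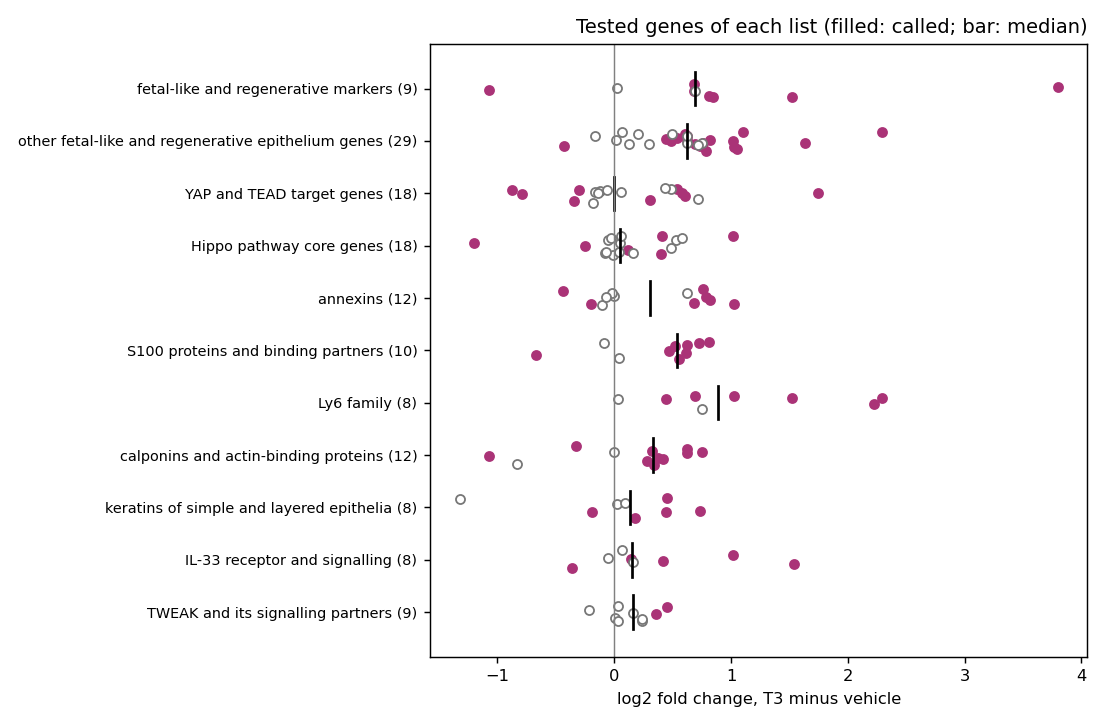
Log2 fold change, T3 minus vehicle (x axis), of each tested gene in the marker set and 10 related lists, with the number tested in brackets, filled points for called genes and a bar at the median. The Ly6 family has the highest median of the lists drawn, 0.89. That median includes Psca and Ly6c1, which passed the filter on low values through the T3 libraries alone. The markers, the wider fetal-like list and the S100 list have medians from 0.54 to 0.70, while the YAP target and Hippo lists centre near 0.

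Several of the markers are also made by other cell types: Il33 by fibroblasts and endothelium, Ly6a by endothelium and blood cells, Msln by mesothelium. Of 13 fibroblast and smooth muscle genes only Vim and Pdgfrb were tested, and neither was called by limma, at adjusted p-values of 0.418 for Vim and 0.263 for Pdgfrb. Their summed level was 312 to 392 normalized reads in vehicle libraries and 258 to 331 in T3 libraries, nearly all of it Vim and Pdgfrb, while Col1a1 was at 1 to 21, Dcn at 0 to 2 and Lum at 0. Endothelial, nerve and blood genes summed to 325 to 360 with vehicle and 225 to 296 with T3. Of 6 tested 1 fell, where 20.8% of all genes tested fell. It was Lyve1, a call lost without any one library except T3 replicate 1. The endothelial genes Cdh5 and Kdr were at 0 in all 6 libraries. Other endothelial genes were detected. Pecam1 was at 12 in each vehicle library and at 9, 7 and 7 with T3, and Prox1, of lymphatic endothelium and some endocrine cells, was at 55, 53 and 54 and at 52, 37 and 39. Neither passed the test, although their groups did not overlap. Vwf was at 15, 35 and 24 and at 17, 17 and 12. The part of these cells in the marker results was not tested. Immune genes summed to 782 to 888 and 777 to 1028, mostly Kit and Itgam. Of 3 tested Itgam rose 3.59-fold from 97.3 ± 15.2 to 349 ± 7.55 and Kit fell 1.36-fold, a call lost without vehicle replicate 2, vehicle replicate 3 or T3 replicate 1, while the leukocyte marker Ptprc was at 0 to 3 and 6 of 14 immune genes were at 0 throughout.

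The genes whose profile over the 6 libraries was nearest to that of the most raised and the most lowered marker were found by the Euclidean distance between log2 values centred on each gene's mean. For Il33 they were Ppard, Syt12, Vipr1, Sned1 and Nod2, at distances of 0.72, 0.80, 0.84, 0.85 and 0.85. Nod2, a sensor of bacterial cell walls, went from 27, 23 and 33 normalized reads to 407, 367 and 394, and Ppard, a nuclear receptor for fatty acids, from 963, 1025 and 1022 to 11217, 11131 and 10461. Syt12 and Sned1, like Il33, were below 10 in every vehicle library or close to it and reached 40 to 59 with T3. Both passed the filter on low values through the T3 libraries alone, so their distances to Il33 rest on few reads. For Cnn3 the nearest were Ugdh, Acss1, Mgst1, Prss12 and Ces2g, at distances from 0.10 to 0.15, with falls between 2.02-fold and 2.14-fold. Ugdh, which makes UDP-glucuronate, went from 8806 to 4175 normalized reads on average, and Mgst1, a microsomal glutathione transferase, from 6061 to 3009.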

How the data were processed

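RNA was sequenced from 6 organoid libraries prepared as directional libraries, per the labels' protocols. STAR, Subread and DESeq2 are named without versions, per the submitters' processing notes, and the build is mm10 (GRCm38), per the file headers. Values in the deposited sample columns are a score: whole numbers that the authors obtained by scaling each library's gene reads and rounding, not raw counts. The deposited mean equalled the mean of the 6 columns to within 0.833, so no count model was run and the planned test for normalized values was used. Alongside them the authors deposited their own log2 fold changes and p-values, quoted here for Anxa1. A second deposited table of 5786 genes repeats rows of the first.

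Genes that reached 10 normalized reads in 3 or more libraries (13052) were tested with limma 3.58.1 in R 4.3.3 on log2(value + 1), with a trended variance prior, no replicate block and Benjamini-Hochberg adjustment over all genes tested. The test was checked on simulated data. Precision is limited by 3 libraries per group. The 9 markers, the gene lists and the rule for naming genes were chosen with earlier results of these data known. The rule names the markers, Klf9, up to 4 called genes per list by smallest p (or up to 2 of highest level where none was called) and the 5 nearest profiles of the most raised and the most lowered marker. Promoters came from RefSeq (GRCm38.p6) and were matched by symbol. Alternatives were other scalings, pseudocounts, filters, variance models and thresholds, a replicate block and leaving out libraries.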

Additional observations from a re-analysis of the deposited data

How the results depend on the processing

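Stricter thresholds aside, Il33, Tnfrsf12a, Cnn3, Clu and Ly6a kept their direction and their call in 17 of 17 alternative settings each. S100a6 did so in 16 of 17 (adjusted p = 0.0610 with robust moderation) and Anxa1 in 11 of 17 (adjusted p from 0.00515 to 0.0869). With an adjusted p under 0.01 required, 6 markers were called, and Anxa1 was the one lost. The number of markers called was 7 in the test as reported and between 5, with robust moderation, and 8 otherwise. Leaving out 1 library at a time gave 6 to 8 markers and 4548 to 5951 genes called in all. Leaving out both vehicle replicate 1 and T3 replicate 3, an alternative chosen after seeing the data, gave 6 markers. With the replicate block, that is, the replicate number of the labels, 8 markers and 5405 genes were called, the added marker being Msln (adjusted p = 0.0256). Same-numbered libraries did not deviate together (correlations of -0.070, 0.028 and -0.057 over 13052 genes), so the numbers were not taken as pairs. A requirement of at least 1.5-fold left 1648 of the 5851 called genes and all 7 called markers. The sign of the small Krt7 difference changed with upper-quartile scaling (-0.025), with equal column totals (-0.045) and without both libraries (-0.019), and leaving out 1 library at a time it ran from -0.028 to 0.048. Among the 69 genes named by the rule, 60 kept direction and call in every setting in which they were tested, stricter thresholds aside. The others were Anxa1, S100a6, Msln, Krt7, Irak1, Krt19, Krt80, Kit and Lyve1. Psca, Lynx1, Syt12, Sned1 and Krt80 were not tested with the filter at 50 normalized reads. Depth limits Psca, Ly6c1 and, with vehicle, Il33, Syt12 and Sned1, whose levels rest on few reads.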

Other observations

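Of the 13052 genes tested, 59 had vehicle replicate 1 at least 1.5 times below each of the other vehicle libraries together with T3 replicate 3 as the highest T3 library, a rule set after the values were seen. The 4 with the highest mean level were S100a6, Msln, Anxa1 and Ly6a. The next were Ano1, a calcium-activated chloride channel, at 132, 209 and 207 normalized reads with vehicle and 319, 438 and 529 with T3, and Ms4a8a, at 79, 165 and 150 and at 427, 365 and 456. Gprc5a, a retinoic acid-induced receptor of epithelia, was at 72, 172 and 135 with vehicle and 251, 265 and 280 with T3, and Col4a2, a basement membrane collagen, at 57, 160 and 96 and at 196, 263 and 301. These genes are given as values, without a test.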
